A study of Mus musculus with 8 samples.

Results

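The genes described here are the ligands and receptors of axon guidance in cells of the mouse dentate gyrus, the part of the hippocampus where new neurons are born in adult life. They were chosen by symbol alone, as every gene in the tables named as a semaphorin of classes 3 to 7 (Sema), a plexin (Plxn), a neuropilin (Nrp), a Robo receptor, a Slit, an Unc5 receptor, Dcc, a netrin (Ntn), an Eph receptor or an ephrin (Efn). This rule, which used no measured value, found 68 of 31053 genes, 34 of them ligands and 34 receptors. Their RNA was counted in single cells of Nestin-GFP mice, in stages of young neurons, neurons with Reln, glia and vessel cells.

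The Control library came from Nestin-GFP male mice with a sham craniotomy, and the TBI library from Nestin-GFP male mice with a unilateral controlled cortical impact, a model of traumatic brain injury. All animals were 8 weeks old, carried GFP under control elements of the nestin gene, and were studied 15 days after surgery. By the study's methods, ipsilateral dentate gyri, those on the side of surgery, were dissociated, pooled by condition and sorted for GFP. The data are thus 2 libraries made with the 10x Genomics 3′ kit, and the sort set which cells entered them. The labels list 4 animals per condition, the study's methods give other numbers, and the cells cannot be assigned to animals. Each condition has 1 library, so nothing was replicated or tested. Every interval below is a 95% interval for counting error only, and conditions cannot be told apart from libraries.

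The tables were matched to conditions by cell barcodes that the study lists, 356 for Control and 320 for TBI, all of which were found in the table of their own condition and 0 in the other. After a filter on RNA content, 3048 Control and 5033 TBI cells remained, 8081 in all, with 24629018 and 31501853 unique molecular identifiers (UMIs), the tags that mark single captured RNA molecules. The medians were 6933 and 5676 UMIs per cell, and 3 barcodes occurred in both libraries. Scrublet called 1.25% of Control and 2.19% of TBI cells doublets, and these were kept. Mitochondrial UMIs made up over 10% in 873 of the 3048 Control and 939 of the 5033 TBI cells. These cells were kept as well, so a setting without them removed unequal shares of the libraries.

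Guidance cues are secreted or membrane-bound proteins that steer growing axons, dendrites and migrating cells by attraction or repulsion. Secreted class 3 semaphorins bind neuropilins, which signal through plexins, whereas membrane-bound semaphorins bind plexins directly. Slits repel through Robo receptors, netrins attract through Dcc and repel through Unc5 receptors, and ephrins and Eph receptors signal in both directions between touching cells. In the dentate gyrus these systems are known to guide granule cell placement, dendrites and the mossy fibre axons, and in vessels the same families pattern arteries, veins and capillaries.

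Cells were clustered without the guidance genes and grouped into 15 classes by fixed marker genes, and each class name stands for cells that resemble that type by its markers. The lineage classes were cycling progenitors with 183 Control and 195 TBI cells, radial glia-like progenitors with 149 and 236, early neuroblasts with 148 and 274, intermediate neuroblasts with 120 and 233, late neuroblasts with 165 and 279, and immature granule neurons with 112 and 195. Reln neurons numbered 29 and 76, stem-like astroglia 89 and 44, and astrocytes 721 and 702. The remaining classes were oligodendrocyte precursors (OPCs, 28 and 55), oligodendrocytes (571 and 1117), microglia and macrophages (38 and 88), endothelial cells (262 and 568), pericytes (205 and 627) and smooth muscle cells (51 and 41). A further 449 cells stayed unnamed, and 31 fibroblast-like cells were too few for a class.

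The markers, none of them a guidance gene, were highest in their own class for all 10 genes of cycling progenitors, all 8 each of oligodendrocytes, endothelial cells and pericytes, and 8 of 9 of Reln neurons. Radial glia-like progenitors had 8 of 12, and stem-like astroglia and astrocytes 7 of 9 each. The clusters were named from these same markers, so the counts describe the classes and are no independent check of their names. The stages of neuroblasts overlapped more. Among the 4 stages, 6 of 7 early markers, 4 of 9 intermediate, 2 of 7 late and 6 of 9 immature granule markers were highest at their own stage in both libraries, and over all 15 classes 5, 4, 2 and 2 of them.

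Levels are given as CPM, the UMIs of a gene in a class per 1000000 UMIs of the class without Malat1. A UMI stands for 1 molecule whatever its length, and levels are compared between classes and libraries for the same gene. Of the 68 genes, 58 had at least 100 UMIs over the named classes. Robo3 had 0 UMIs, Epha6 and Ntn5 had 2 each, Epha1 and Sema3f 18 each, Epha10 had 20, Efna3 had 40, Slit1 had 53, Sema3b had 61 and Epha8 had 77. Their highest level in any class was that of Efna3 in Reln neurons, 15.8 CPM in Control and 17.1 in TBI. At the upper end, 23 genes reached 100 CPM in at least 1 class in both libraries. The class with the highest level was the same in both libraries for 42 of the 58 genes.

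**Figure D1:**
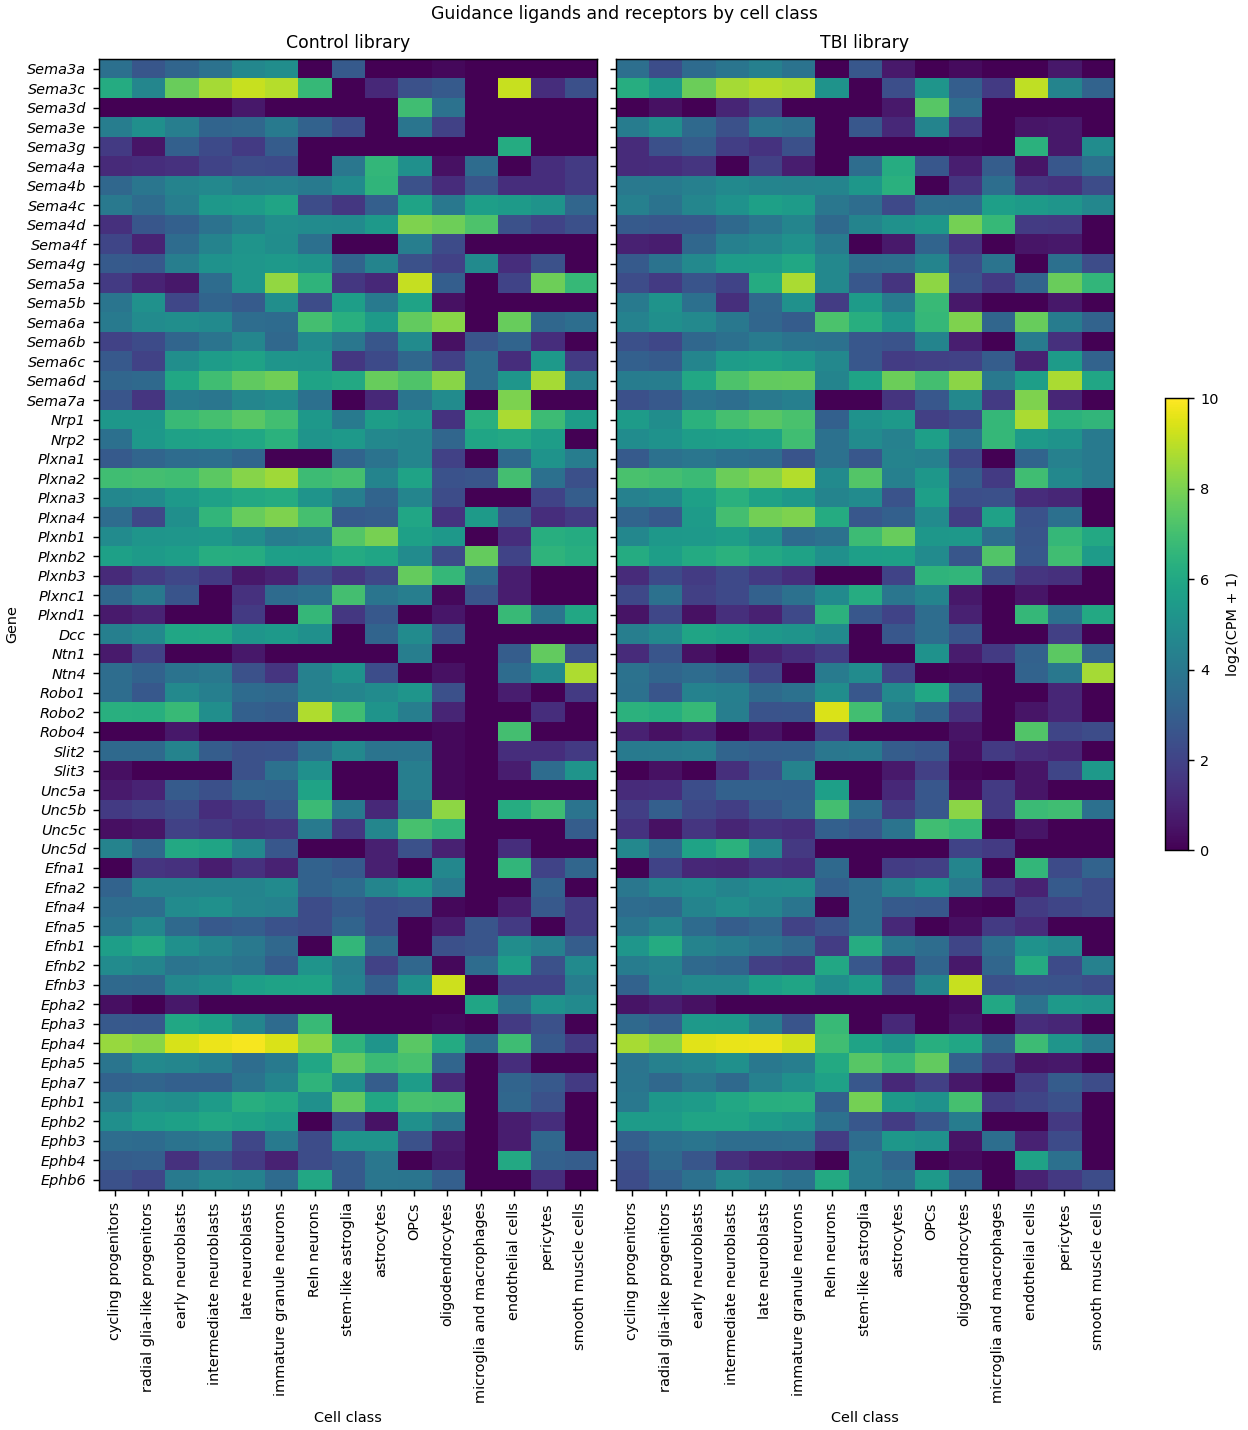
Level of each of the 58 guidance genes with at least 100 UMIs (rows) in each of the 15 cell classes (columns), as log2(CPM + 1), in the Control library (left) and the TBI library (right). Epha4 forms the brightest row across the neuroblast stages, Efnb3 stands out in oligodendrocytes, Robo2 in Reln neurons, Ntn4 in smooth muscle cells and Robo4 in endothelial cells.

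Each cell group carried its own mixture of families. Summed over their 4 genes, class A plexins were at 205 CPM in Control and 220.4 in TBI early neuroblasts and at 718 and 777 in immature granule neurons. The 7 class 3 semaphorins together were at 615 and 522 CPM in late neuroblasts and at 638 and 609 in endothelial cells, against 1.25 and 7.33 in astrocytes. The 3 netrins were at 438 and 408 CPM in smooth muscle cells and at 0.35 and 0.79 in oligodendrocytes. The 3 ephrin-B genes were at 608 and 581 CPM in oligodendrocytes, and the 9 EphA receptors were at 972 and 898 CPM in late neuroblasts. Single genes made up most of several sums. Efnb3 was at 603 and 577 CPM in oligodendrocytes, and Ntn4 at 433 and 400 in smooth muscle cells. In late neuroblasts Epha4 was at 919 and 834 CPM and Sema3c at 578 and 484.

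**Figure D2:**
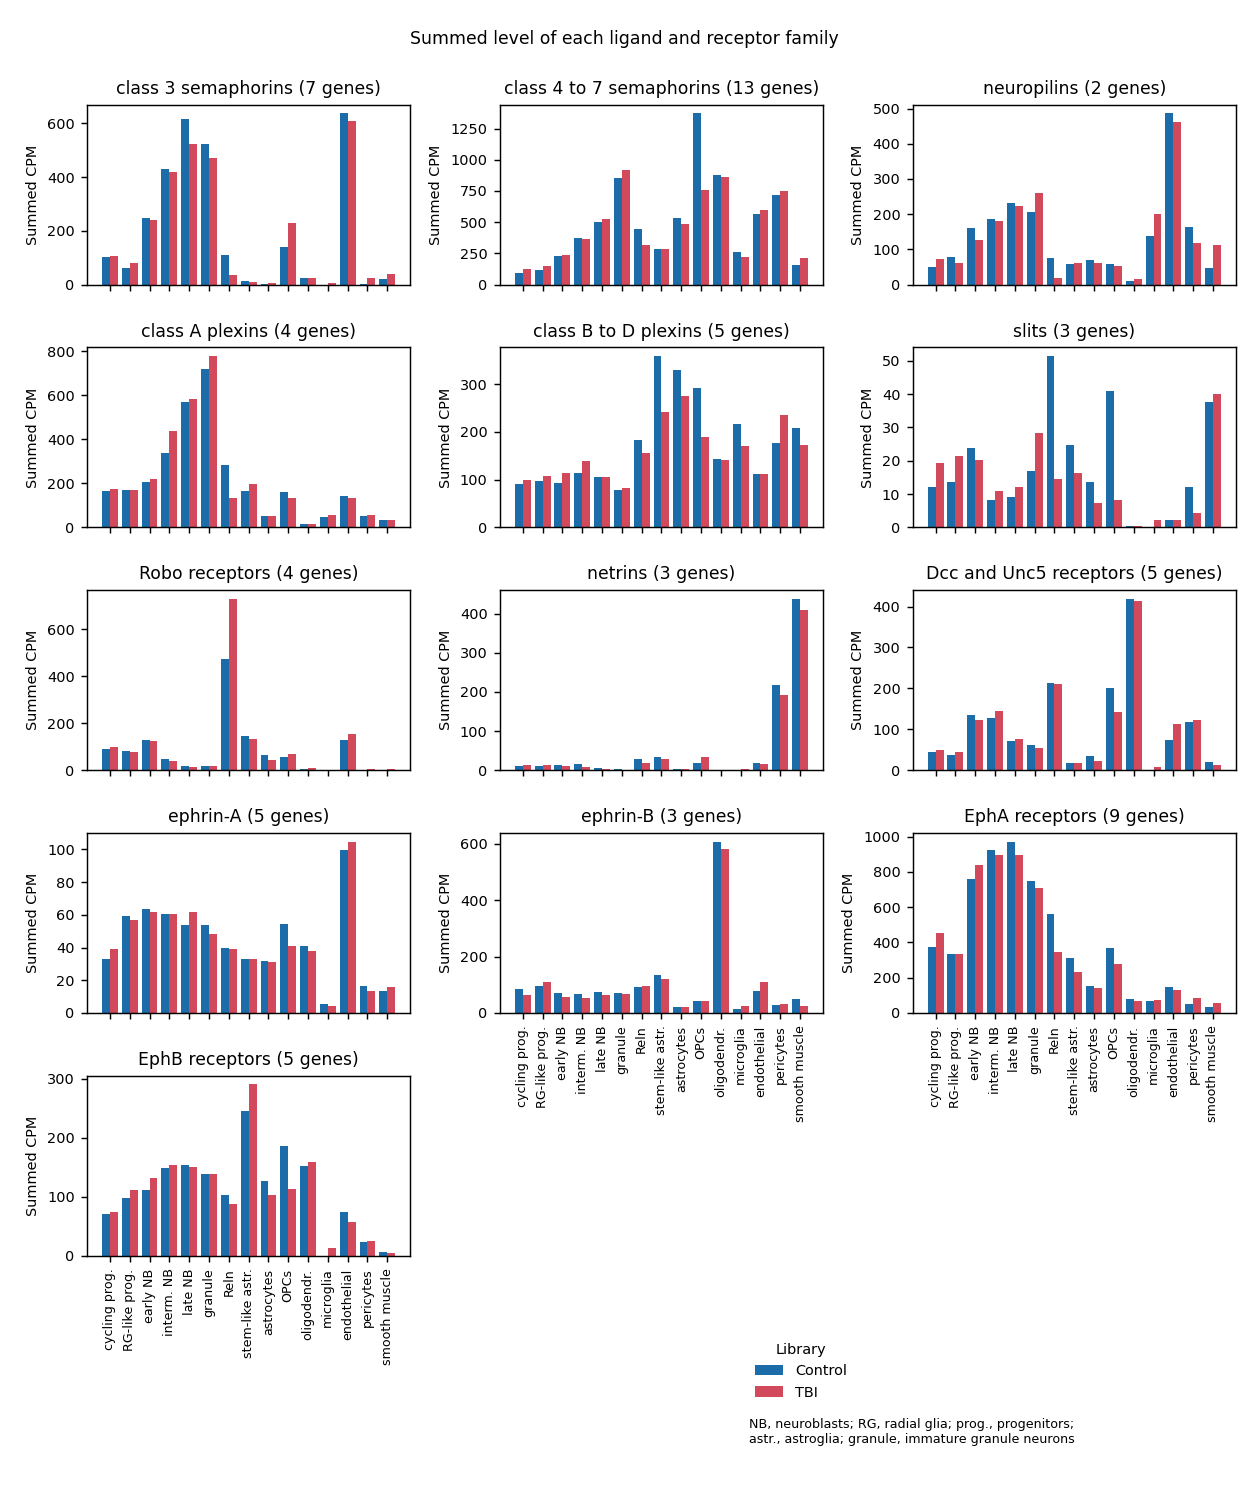
Summed CPM of the genes of each ligand and receptor family (panels) in each cell class (horizontal axis), with a bar for the Control library and a bar for the TBI library. Class A plexins are higher at each later neuroblast stage in both libraries, class 3 semaphorins are highest in late neuroblasts and endothelial cells, netrins stand in pericytes and smooth muscle cells, and ephrin-B in oligodendrocytes.

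A gene was called led by a group of classes when the group's highest class was at least 4-fold above the highest class of every other group in both libraries. Of the 58 guidance genes, 9 were led (15.5%), beside 10.3% of the 13110 genes of the tables with as many UMIs. The median was 802 UMIs for the guidance genes and 1388 for all. The oligodendrocyte lineage led 4 of the 9 (Efnb3, Plxnb3, Sema3d and Unc5c), endothelial cells 3 (Efna1, Robo4 and Sema7a) and mural cells, the pericytes and smooth muscle cells that wrap vessels, 2 (Ntn1 and Ntn4). The progenitors, neuroblasts, Reln neurons, astroglia and microglia led 0. The split by group was not computed for all led genes, so these counts by group have nothing to be set against. Genes outside this rule and outside the stage and TBI rules below that are named with values, among them Nrp1, Nrp2 in neurons, Dcc, Ephb1, Plxnc1, Plxnd1 and Plxnb2, were chosen after their values were seen.

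The main question for the neuroblasts was which cues and receptors differ between the start and the end of the stages captured. A gene was called higher or lower when immature granule neurons and early neuroblasts differed at least 2-fold in the same direction in both libraries. Of the 43 guidance genes with at least 50 UMIs in these 2 classes, 11 were higher in immature granule neurons and 11 were lower, 25.6% each. Of all 9549 genes with as many UMIs, 6.07% were higher and 5.25% lower. The median log2 ratio was 0.03 for the guidance genes and -0.02 for all genes, with a median of 178 and 254 UMIs per gene. In all 9 other processings that were run, 4 of the 11 that were higher (Plxna2, Plxna4, Sema5a and Sema6d) and 1 of the 11 that were lower (Robo2) passed the rule again.

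Among the 4 class A plexins, Plxna2 and Plxna4 were higher in immature granule neurons, Plxna1 was lower, and Plxna3 passed in neither direction, with ratios of 1.68 in Control and 0.82 in TBI. Plxna4, a receptor for class 3 and class 6 semaphorins (GRCm38 chromosome 6, 32144268 to 32588192, minus strand), was at 30.5 CPM in Control early neuroblasts, 95.6 in intermediate, 204 in late and 267 in immature granule neurons. In TBI its levels were 44.0, 129, 235 and 267 CPM. The level was higher at every later stage in both libraries, with ratios of immature granule to early of 8.73 (6.51 to 11.9) and 6.06 (4.91 to 7.55). Plxna4 is a marker of neuroblast stages in the study, so its direction is not independent of earlier results of these cells.

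Plxna2, the receptor through which Sema5a and Sema6a are known to act in granule cells, was at 122, 180, 290 and 381 CPM over the 4 stages in Control and at 112, 215, 284 and 464 in TBI. The ratios were 3.14 (2.65 to 3.72) and 4.15 (3.61 to 4.78). Plxna2 was also read in cycling progenitors, at 122 and 139 CPM, so its level was flat up to early neuroblasts and higher at each later stage. Plxna1, another class A plexin, went the other way, from 10.7 to 0 CPM in Control and from 14.2 to 5.11 in TBI, which is at least 3.81-fold lower in Control against a floor of 3 UMIs. Epha7, an EphA receptor, was at 7.35 and 21.6 CPM in the first and the last stage in Control and at 14.5 and 31.4 in TBI.

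The semaphorin ligands made up most of the genes that were higher. Sema5a, a transmembrane semaphorin with thrombospondin repeats (GRCm38 chromosome 15, 32244810 to 32696341, plus strand), was at 0.57 CPM in Control early neuroblasts, 1 UMI, then at 10.5, 37.6 and 335 CPM. In TBI its 4 levels were 4.98, 3.09, 70.4 and 423 CPM. Most of this difference lay in the last step, and the ratios over all stages were 593 (106 to 23477) in Control and 85.02 (49.3 to 161) in TBI.

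Counted over cells thinned to 2000 UMIs each, Sema5a was found in 0% of 148 Control early neuroblasts, which at a floor of 3 cells allows a share of cells with a UMI of up to 2.03%, and in 1.09% (0.226 to 3.17) of 274 TBI cells. In immature granule neurons the shares were 42.0% (32.7 to 51.7) and 52.8% (45.6 to 60.0). Without thinning they were 85.7% and 84.6%. Here and below, thinning left out every cell under 2000 UMIs, so thinned and unthinned values can cover different cells. It left out 172 of 721 Control and 321 of 702 TBI astrocytes, but 0 immature granule neurons. Astrocytes, where Sema5a was at 1.25 and 1.83 CPM, had 0.364% and 0.525% after thinning and 0.416% and 0.427% before, with median depths of 3206 and 2229 UMIs against 9567 and 7246 in immature granule neurons. Oligodendrocytes, whose median depths were 10175 and 8299 UMIs, had 1.09% and 0.976% after thinning and 4.20% and 2.69% before.

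Sema3c, a secreted semaphorin that binds neuropilins, was at 211, 404, 578 and 469 CPM in Control and at 215, 399, 484 and 441 in TBI, so it peaked in late neuroblasts in both libraries. Sema6d, a transmembrane ligand of plexins, was at 60.5, 121, 185 and 225 CPM in Control and at 62.8, 148, 193 and 198 in TBI. These levels gave end-to-start ratios of 2.22 and 2.06 for Sema3c and of 3.72 and 3.16 for Sema6d.

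The other semaphorins that were higher had lower levels. Sema4d, Sema4f, Sema4g and Sema5b stood between 22.6 and 60.5 CPM in immature granule neurons of either library, with ratios between 2.21 and 8.86. Sema5b differed most between libraries, with ratios of 8.86 (3.65 to 25.9) in Control and 2.70 (1.67 to 4.43) in TBI, and in TBI it was at 11.9 CPM in early and 1.54 in intermediate neuroblasts. Efnb3, a transmembrane ephrin, was the ephrin that was higher, from 24.3 to 53.5 CPM in Control and from 24.9 to 56.2 in TBI.

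**Figure D3:**
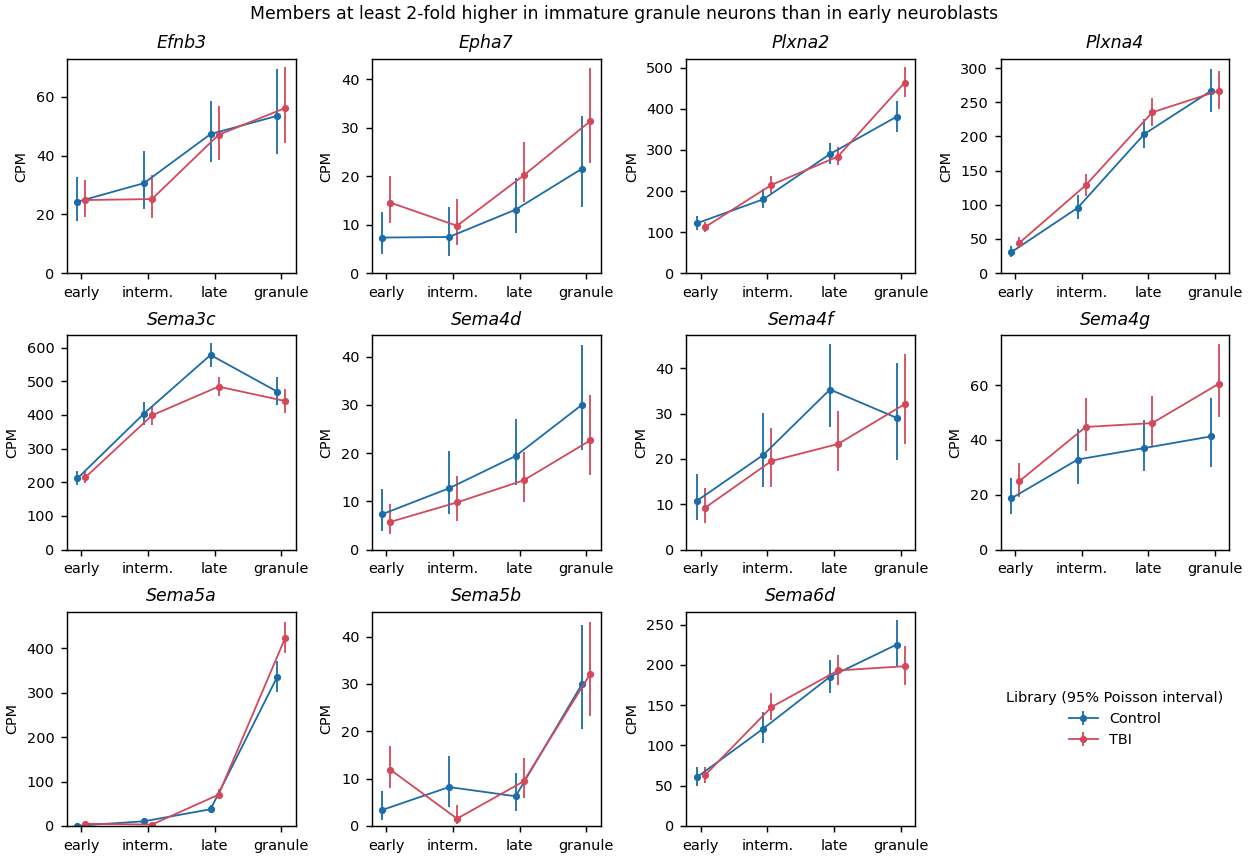
CPM (vertical axis, from 0) of the 11 guidance genes at least 2-fold higher in immature granule neurons than in early neuroblasts, over the 4 neuroblast stages (horizontal axis), in the Control and the TBI library, with 95% Poisson intervals. Plxna2 and Plxna4 are higher at every later stage, Sema3c peaks in late neuroblasts, and Sema5a is near 0 until late neuroblasts and reaches 335 and 423 CPM in immature granule neurons.

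The promoters of 4 of these genes with a single start in the RefSeq table, 250 bases before to 50 after the start on GRCm38.p6, are shown because Sema5a, Plxna2 and Sema3c were higher together and Epha3 was lower. Capitals mark the E-box CAGATG or its reverse complement CATCTG, a form that proneural factors such as Neurod1 are known to bind, searched on both strands. Sema5a lies at chr15:32244563-32244862 (plus strand), Plxna2 at chr1:194619579-194619878 (plus strand), Sema3c at chr5:17574566-17574865 (plus strand) and Epha3 at chr16:63864126-63864425 (minus strand).
Sema5a: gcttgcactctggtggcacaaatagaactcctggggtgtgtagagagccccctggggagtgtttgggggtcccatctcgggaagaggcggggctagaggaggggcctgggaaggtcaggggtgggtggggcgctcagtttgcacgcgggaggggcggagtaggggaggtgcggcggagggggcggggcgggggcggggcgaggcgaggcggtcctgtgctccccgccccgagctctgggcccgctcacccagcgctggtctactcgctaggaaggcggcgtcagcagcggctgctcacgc
Plxna2: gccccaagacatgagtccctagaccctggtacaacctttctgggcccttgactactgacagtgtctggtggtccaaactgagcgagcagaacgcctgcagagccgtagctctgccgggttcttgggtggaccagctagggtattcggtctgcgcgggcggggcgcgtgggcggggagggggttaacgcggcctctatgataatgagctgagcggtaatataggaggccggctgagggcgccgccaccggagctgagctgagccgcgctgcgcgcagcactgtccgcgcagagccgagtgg
Sema3c: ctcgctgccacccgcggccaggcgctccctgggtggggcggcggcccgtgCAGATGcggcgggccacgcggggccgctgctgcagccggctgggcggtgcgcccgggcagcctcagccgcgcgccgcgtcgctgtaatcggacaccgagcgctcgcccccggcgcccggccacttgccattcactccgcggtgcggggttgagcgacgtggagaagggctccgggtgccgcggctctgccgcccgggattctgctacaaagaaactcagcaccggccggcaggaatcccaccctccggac
Epha3: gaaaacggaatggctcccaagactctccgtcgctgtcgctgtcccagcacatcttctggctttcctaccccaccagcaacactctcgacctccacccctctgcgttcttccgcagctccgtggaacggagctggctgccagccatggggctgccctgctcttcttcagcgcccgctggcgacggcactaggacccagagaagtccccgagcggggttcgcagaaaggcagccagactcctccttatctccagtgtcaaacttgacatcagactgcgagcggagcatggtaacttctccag
These letters occur once in the Sema3c window and 0 times in the other 3. Of the 32851 RefSeq promoters, a share of 17.2% holds the E-box. Guidance genes with a RefSeq promoter numbered 58, not the same 58 as those with at least 100 UMIs. Of their 74 promoters 5 hold the E-box (6.76%). Among genes with a promoter, 1 of 9 that were higher along the stages and 0 of 8 that were lower hold it. The windows shown are rich in G and C, 71.3% for Sema5a, 64.7% for Plxna2, 75.7% for Sema3c and 60.7% for Epha3, against a median of 52.7% over the table.

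Robo2 was the clearest of the genes that were lower. Robo2, a receptor for Slits (GRCm38 chromosome 16, 73891839 to 74411825, minus strand), was at 105 CPM (90.05 to 121) in Control early neuroblasts, then at 29.9, 7.41 and 6.57 CPM. In TBI it was at 104 CPM (91.7 to 117), then 18.5, 4.93 and 5.11. Most of the difference lay between the first and the second stage, and immature granule neurons were at 0.063 (0.025 to 0.13) of the early level in Control and at 0.049 (0.020 to 0.10) in TBI. Cells with a Robo2 UMI after thinning made up 15.5% and 17.5% of early neuroblasts and 0.893% and 0.513% of immature granule neurons, beside 0% and 0.293% of oligodendrocytes. Before thinning the shares were 56.1% and 53.3% in early neuroblasts and 1.05% and 0.985% in oligodendrocytes, whose median depth is given above, against 12003 and 9546 UMIs in early neuroblasts. Cycling and radial glia-like progenitors, at 73.6 to 84.5 CPM in either library, carried Robo2 too.

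Unc5d, a netrin receptor (GRCm38 chromosome 8, minus strand), was at 63.9 CPM in Control early neuroblasts and at 56.8, 24.5 and 5.63 in the later stages. In TBI it was at 55.1 CPM, then 82.8, 23.3 and 2.19. Early and intermediate neuroblasts were thus high and the last stage low in both libraries, with ratios of 0.088 (0.032 to 0.20) and 0.040 (0.0081 to 0.12), the latter resting on 3 UMIs in TBI immature granule neurons. Dcc, the attractive netrin receptor, was at 58.8 and 57.0 CPM in early neuroblasts and 40.4 and 35.01 in immature granule neurons and did not reach 2-fold.

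Epha3, an EphA receptor, was at 60.5, 50.8, 22.2 and 10.3 CPM in Control and at 40.2, 39.1, 17.0 and 5.11 in TBI. Efnb1, a transmembrane ephrin, was highest in radial glia-like progenitors within the lineage, at 63.9 and 69.8 CPM, and was at 9.39 and 9.48 in immature granule neurons. Sema6a, a transmembrane ligand of plexins, went from 29.96 to 10.3 CPM in Control and from 25.3 to 6.56 in TBI. Plxnb1, a receptor for Sema4d, went from 37.3 to 17.8 CPM and from 40.2 to 10.2.

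The other 4 genes that were lower, Efna5, Efnb2, Ntn4 and Slit2, were at 9.57 to 21.5 CPM in early neuroblasts of either library and at 7.29 or less in immature granule neurons. The Control intervals of Efna5, 0.49 (0.14 to 1.38), and Efnb2, 0.48 (0.18 to 1.16), held a ratio of 1, and their TBI intervals did not. Efna5 passed the stage rule again in 3 of the 9 other processings, and Plxnb1 and Epha7 in 5. Sema3c, Sema4f and Slit2 passed it again in 6, and Efnb2 in 7. The remaining genes that did not pass in all 9 did so in 7 or 8. Ntn4, a netrin of basement membranes, had 0 UMIs in TBI immature granule neurons, at least 4.90-fold lower than in early neuroblasts. Slit2 is a repellent for cells that carry Robo1 and Robo2, and its level was lower along the same stages as that of Robo2, at 21.5 and 4.69 CPM in the first and the last stage in Control and 18.4 and 7.29 in TBI.

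**Figure D4:**
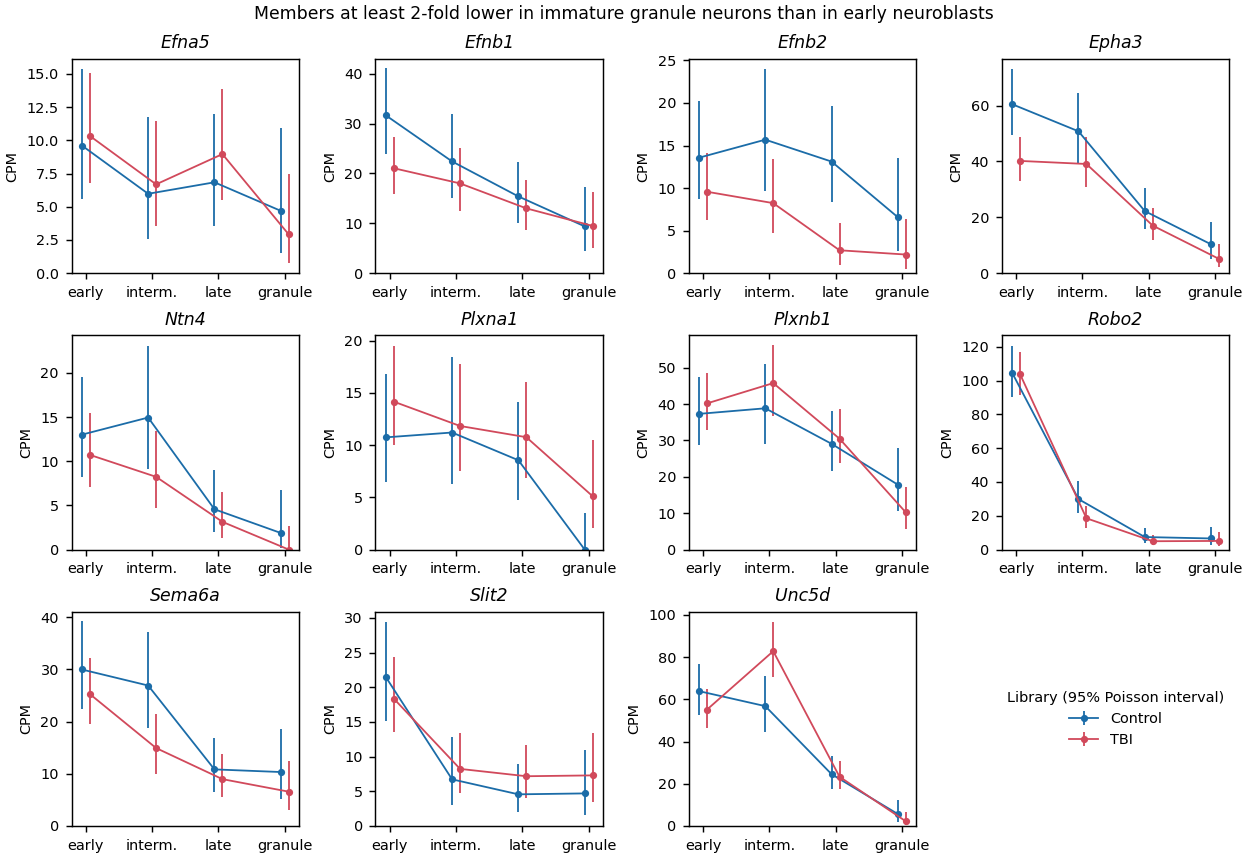
CPM (vertical axis, from 0) of the 11 guidance genes at least 2-fold lower in immature granule neurons than in early neuroblasts, over the 4 neuroblast stages (horizontal axis), in the Control and the TBI library, with 95% Poisson intervals. Robo2 is above 100 CPM in the first stage and below 30 in the others, while Unc5d and Epha3 stay high through intermediate neuroblasts.

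The remaining 21 genes passed in neither direction. Epha4, which binds ephrins of the A and the B type, was at 665, 845, 919 and 691 CPM in Control and at 756, 816, 834 and 643 in TBI, so its end stood near its start. Nrp1, the neuropilin for Sema3a, was at 109 CPM in Control early neuroblasts and 124 in immature granule neurons and at 81.9 and 139 in TBI, and was highest at 171 and 168 in late neuroblasts. Nrp2 was at 52.0 and 83.5 CPM at the ends of the stages in Control and at 45.9 and 120 in TBI, past 2-fold in TBI alone.

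The other genes of the pathway were read from a fixed list, to be set beside the 6.07% higher and 5.25% lower of all genes. Of its 9 other ligands, 5 had enough UMIs, with 1 higher and 1 lower. Both are FLRT proteins, known ligands of Unc5 receptors: Flrt3 went from 40.1 to 122 CPM in Control and from 36.4 to 135 in TBI, and Flrt2 from 23.2 to 3.75 and from 15.7 to 0.73. Of 19 other receptors and co-receptors, 14 had enough UMIs, with 5 higher and 2 lower. Chl1, an L1-type adhesion molecule, went from 35.6 to 548 CPM and from 44.8 to 616, Nrcam and Cntn2, adhesion molecules of axons, had ratios of 4.32 and 4.57 in Control and 9.87 and 4.73 in TBI, and Lrig1 was lower, at 0.083 and 0.37.

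Of 47 cytoplasmic mediators, 42 had enough UMIs, with 5 higher and 4 lower. Ablim3, an actin-binding LIM protein, was at 1.13 and 27.2 CPM in the first and the last stage in Control and at 0.38 and 29.2 in TBI. Dpysl4, a collapsin response mediator protein that relays semaphorin signals, went from 17.5 to 93.9 CPM and from 15.7 to 113. Dock1, an activator of Rac, was lower, with ratios of 0.39 in Control and 0.16 in TBI.

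Reln neurons, named for the secreted guidance protein reelin, had the highest Robo2 level of all classes, 451 CPM (372 to 542) in Control and 697 (618 to 783) in TBI. The next highest group was astroglia in Control, and Robo2 was 3.71-fold above the next group in Control and 5.53-fold in TBI, so it missed the 4-fold rule in Control. Robo2 was found in 66.7% (44.7 to 84.4) of 24 Control and 68.7% (56.2 to 79.4) of 67 TBI Reln neurons after thinning and in 93.1% and 89.5% before.

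Among the netrin receptors, Unc5d had 0 UMIs in the Reln neurons of either library, which after thinning allows a share of cells with a UMI of up to 12.5% of 24 Control and 4.48% of 67 TBI cells. Unc5a was at 55.4 and 48.7 CPM and Unc5b at 111 and 127 CPM. Epha3 at 107 and 105 CPM, Epha7 at 91.0 and 51.2 and Ephb6 at 63.3 and 65.8 had their highest class here, and Plxnd1, the receptor of Sema3e, was at 98.9 and 85.3 CPM. The class holds 6 cells called doublets, 5.71% of its cells.

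In astroglia, Plxnb1 was at 249 CPM (230 to 270) in Control and 205 (183 to 228) in TBI astrocytes, its highest class. Sema4a and Sema4b, transmembrane semaphorins, were highest in astrocytes as well, at 96.1 and 72.7 CPM and at 93.2 and 81.3 CPM. Stem-like astroglia differed from astrocytes in receptors. There Ephb1 was at 194 and 241 CPM against 62.4 and 42.2 in astrocytes, and Plxnc1, the receptor of Sema7a, was at 128 (97.96 to 164) in Control and 71.2 (37.9 to 122) in TBI. The study lists Plxnc1 and Ephb1 among markers of its corresponding astrocyte stage, so these 2 levels are not independent of it. Efnb1, at 96.9 and 71.2 CPM, and Robo2, at 122 and 126 CPM, were also high in stem-like astroglia.

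In the oligodendrocyte lineage, Efnb3 separated mature cells from precursors, at 603 CPM (583 to 623) in Control and 577 (561 to 593) in TBI oligodendrocytes against 31.8 and 22.0 in OPCs. It was 10.9-fold and 10.3-fold above the next group. Unc5b, a netrin receptor, showed the same order, at 318 and 307 CPM in oligodendrocytes and 13.6 and 5.49 in OPCs. Its relative Unc5c was read in both, at 136 and 121 CPM in OPCs and 94.2 and 96.8 in oligodendrocytes.

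Sema3d was highest in OPCs, at 123 CPM (80.9 to 179) and 170 (130 to 218), with 12.6 and 11.02 in oligodendrocytes. Plxnb3, a plexin for Sema5a, was at 195 and 90.6 CPM in OPCs and 99.7 and 95.7 in oligodendrocytes, and was 18.5-fold and 21.5-fold above the next group. Sema5a itself was at 550 CPM (456 to 657) in Control and 310 (256 to 373) in TBI OPCs and at 6.84 and 4.88 in oligodendrocytes. Sema4d, an inhibitor of outgrowth made by oligodendrocytes, was at 219 and 240 CPM in oligodendrocytes, and in OPCs at 264 (200 to 341) in Control and 38.4 (21.0 to 64.5) in TBI. These OPC values rest on 28 and 55 cells, under the 100 cells set for ratios. The 8 oligodendrocyte markers summed to 26055 CPM in Control and 7042 in TBI OPCs, and their part in the differences between libraries was not tested.

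Few members were read in microglia and macrophages. Plxnb2, a receptor of class 4 semaphorins, was at 201 CPM (142 to 275) in Control and 154 (120 to 195) in TBI, its highest class. Sema4d was at 148 and 103 CPM and Epha2 at 58.1 and 62.4. The neuropilins were read as well, Nrp1 at 79.2 and 100 CPM and Nrp2 at 58.1 and 100.

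Endothelial cells carried the receptors and ligands known from vessels. Robo4, the endothelial Robo receptor, was at 127 CPM (108 to 148) in Control and 155 (139 to 173) in TBI and had at most 6 UMIs in any other class of either library. Sema7a, a semaphorin anchored by a lipid, was at 258 and 268 CPM, 9.48-fold and 10.9-fold above the next group. Efna1 was at 94.4 and 98.1 CPM, only just past the rule, at 4.01-fold and 4.38-fold. Nrp1, which also binds VEGF, was at 422 (388 to 458) and 419 (392 to 448) CPM, and Sema3c, one of its ligands, was at 564 and 526 CPM in the same class. Plxnd1 was at 106 and 99.5 CPM, Sema3g, known from arteries, at 70.2 and 81.7, Ephb4, known from veins, at 64.2 and 52.6, and its ligand Efnb2 at 46.8 and 70.9.

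The netrins lay in different mural cells. Ntn1, the classical netrin, was at 193 CPM (161 to 229) in Control and 177 (159 to 198) in TBI pericytes but at 4.44 and 8.01 CPM, 2 UMIs in each library, in smooth muscle cells. Ntn4 had the opposite order, at 433 CPM (375 to 498) and 400 (326 to 487) in smooth muscle cells and 25.6 and 14.8 in pericytes. Unc5b was at 119 and 121 CPM in pericytes, and Sema6d, at 400 (354 to 451) and 421 (392 to 452), and Sema5a, at 220 and 207, were high there too.

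Between the libraries, the levels of guidance genes within a class were mostly close. Over the 13 classes with at least 100 cells, 283 pairs of a guidance gene and a class had at least 50 UMIs. In TBI 22 pairs (7.77%) were at least 1.5-fold above Control and 18 (6.36%) at least 1.5-fold below. Among the 89624 pairs of all genes 3.34% were above and 3.27% below. The pairs of guidance genes had a median of 124 UMIs and those of all genes 175, and the part of this lower count in the shares was not tested. Of the guidance pairs past 1.5-fold, the counting interval left out a ratio of 1 for 30, 16 above and 14 below. This second limit was not applied to the pairs of all genes, so no share stands beside the 30. In oligodendrocytes, the class with the most UMIs, 0 of the 28 genes passed 1.5-fold, beside 4.50% of the 9863 genes of that class in either direction, and the ratios ran from 0.714 to 1.46. The median over all genes of a class was within 0.1 of 0 on the log2 scale in every class, from -0.03 to 0.05.

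In progenitors 9 of the 30 pairs were found, 8 of them higher in TBI. Whatever their interval, 8 of 32 guidance genes in cycling progenitors passed 1.5-fold, 6 of them higher. In radial glia-like progenitors 4 of 28 did, all higher. Of all genes, 5.82% and 5.68% passed in either direction in these 2 classes. Their shares in each direction were not computed by class, so the counts of higher genes here have nothing to be set against. Nrp2 in cycling progenitors was at 12.0 CPM in Control and 28.2 in TBI, a ratio of 2.34 (1.54 to 3.61), and Sema6d at 8.77 and 17.2, a ratio of 1.96 (1.17 to 3.32). Efna2 and Sema4b had ratios of 1.79 and 1.69, while Efnb2 was lower, at 27.3 and 17.2 CPM, a ratio of 0.63 (0.42 to 0.93). In radial glia-like progenitors Sema3c was at 23.2 and 42.8 CPM, a ratio of 1.84 (1.30 to 2.64), and Efnb3, Sema6d and Slit2 had ratios of 2.12, 1.82 and 1.74. In the same class the 8 oligodendrocyte markers summed to 181 CPM in Control and 1085 in TBI and the 8 pericyte markers to 15.0 and 157, and in cycling progenitors the pericyte markers summed to 8.77 and 137 CPM. Markers of early, intermediate and late neuroblasts and of immature granule neurons summed to 1945, 4826, 2097 and 338 CPM in Control cycling progenitors. In TBI these sums were 2078, 5871, 2452 and 480. In radial glia-like progenitors they were 2200, 3423, 2349 and 348 in Control and 2124, 3690, 2360 and 433 in TBI. Median depths of cycling progenitors were 16672 and 11067 UMIs. The part of these markers and of depth in the ratios was not tested. Without cells called doublets the Efnb3 ratio was 1.42. Of the genes named here, Sema3c, Sema6d and Efnb3 were higher in immature granule neurons than in early neuroblasts. Slit2 and Efnb2 were lower, and Nrp2, Efna2 and Sema4b passed the stage rule in neither direction. After thinning, the Sema6d ratio in radial glia-like progenitors was 0.81.

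Over the neuroblast stages the pairs went in both directions. In early neuroblasts Epha3 was at 60.5 and 40.2 CPM, a ratio of 0.66 (0.50 to 0.88), Efnb1 had the same ratio of 0.66, Sema3e, the ligand of Plxnd1, was at 18.7 and 9.57 CPM, a ratio of 0.51, and Epha7 was higher at 1.98. In intermediate neuroblasts Plxna3, a class A plexin, was at 52.3 CPM in Control and 79.7 in TBI, a ratio of 1.52 (1.14 to 2.05), and in immature granule neurons it was at 70.4 and 41.6, a ratio of 0.59 (0.41 to 0.84). Epha5, Robo2 and Sema6a in intermediate neuroblasts had ratios of 1.68, 0.62 and 0.55, and Sema4f in late neuroblasts had 0.66. Robo2 in intermediate neuroblasts turned to 1.07 without cells over 10% mitochondrial UMIs and to 1.89 after thinning, Sema4f turned to 1.25 after thinning, and Epha5 was at 1.07 without cells over 10% mitochondrial UMIs.

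Sema5a in late neuroblasts was at 37.6 CPM in Control and 70.4 in TBI, a ratio of 1.87 (1.39 to 2.53). It turned to 0.50 without integration of the libraries and 0.45 at a coarser resolution, where the class named late neuroblasts is another cluster. Plxna4, at 204 and 235 CPM there, and Sema5a in immature granule neurons, at 335 and 423, did not reach 1.5-fold.

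In Reln neurons Robo2 was higher in TBI, with a ratio of 1.55 (1.24 to 1.94) and between 1.47 and 1.60 in the other processings, while Epha4 was at 301 CPM in Control and 122 in TBI, a ratio of 0.41 (0.28 to 0.59), and Plxna4 at 131 and 70.7, a ratio of 0.54 (0.32 to 0.92). The 9 markers of intermediate neuroblasts summed to 2001 CPM in Control and 743 in TBI Reln neurons, the late neuroblast markers to 2274 and 1282, and the 8 oligodendrocyte markers to 2567 and 305. Endothelial markers summed to 15.8 and 258 CPM and the 8 pericyte markers to 79.1 and 322 CPM, where 1 TBI cell held 94 pericyte UMIs and the next highest 3. The part of these other cells in the ratios was not tested. Without cells called doublets the Epha4 ratio was 0.23, and after thinning the Plxna4 ratio turned to 1.81.

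In astrocytes Robo2 was at 34.9 and 16.5 CPM, a ratio of 0.47 (0.29 to 0.74) that was 0.81 after thinning, Sema4g at 21.6 and 11.6, a ratio of 0.54, and Unc5c at 23.3 and 13.4, a ratio of 0.58. In endothelial cells Unc5b, which is known to restrain vessel sprouting, was at 72.5 and 112 CPM, a ratio of 1.54 (1.21 to 1.97), Efnb2 at 46.8 and 70.9, a ratio of 1.51 (1.12 to 2.07), and Nrp2 at 64.9 and 42.7, a ratio of 0.66 (0.48 to 0.89).

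The ratio farthest from 1 was that of Epha4 in pericytes, 6.02 (2.24 to 22.8), from 4 UMIs in Control and 66 in TBI. Of the 66, 53 lay in 1 cluster with 18 Control and 80 TBI cells, where Epha4 was at 276 CPM in TBI and the intermediate neuroblast markers summed to 3611 CPM, against 61.7 and 45.8 in the other pericyte clusters of TBI. Scrublet called 12 of these 80 cells doublets. Without this cluster the ratio was 1.295, and it was 2.53 without doublets and 1.27 without cells over 10% mitochondrial UMIs. It was 1.69 without integration of the libraries and 1.73 at a coarser resolution. Over all 11 other settings it ran from 1.27 to 7.93. The highest value came without the pericyte cluster that led in immediate early genes, such as Fos and Jun. That cluster held 39 Control and 255 TBI cells. These genes summed to 7039 CPM in Control and 15275 in TBI pericytes, and their part in the ratio was not tested.

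**Figure D5:**
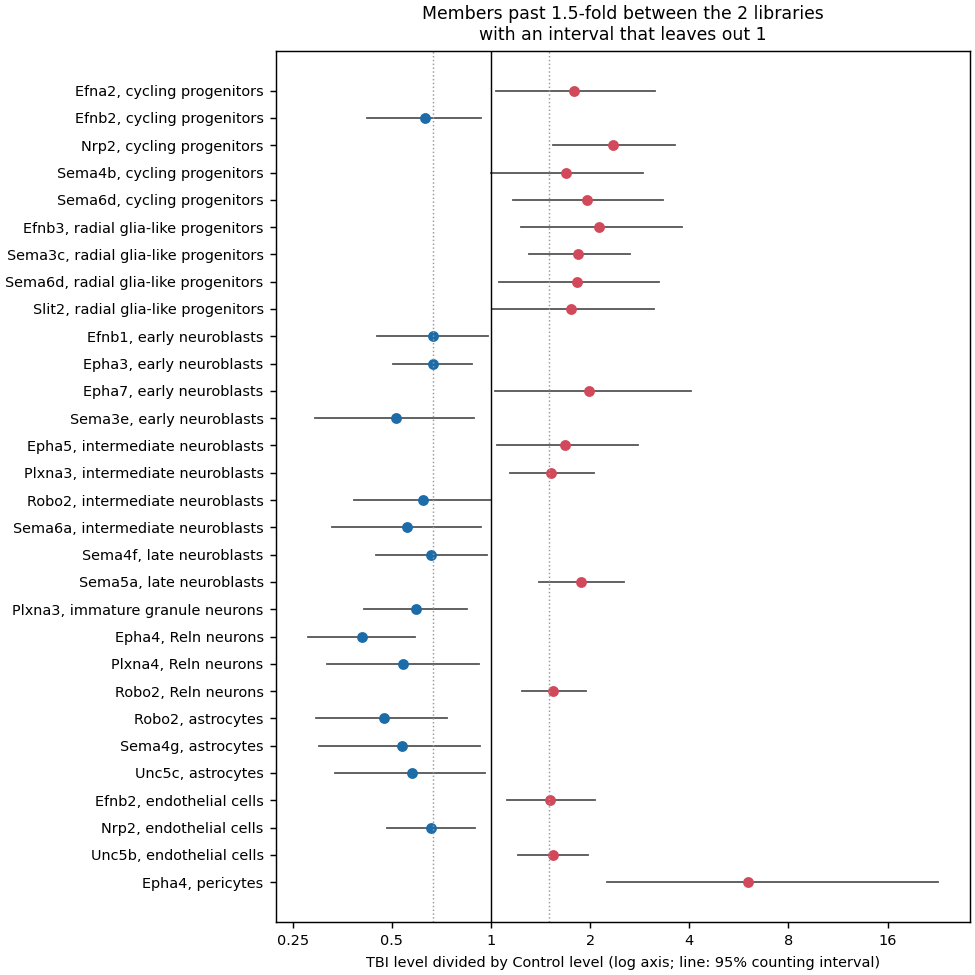
TBI level divided by Control level (horizontal log axis) for the 30 pairs of a guidance gene and a cell class past 1.5-fold whose 95% counting interval (line) leaves out 1 (solid vertical line), with dotted lines at 1.5-fold. The 16 pairs above and 14 pairs below spread over progenitors, neuroblasts, Reln neurons, astrocytes and endothelial cells, and Epha4 in pericytes, at 6.02, stands apart on the right.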

How the data were processed

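Each library was 1 deposited table of raw counts, UMIs per gene and cell, which the authors made from 10x 3′ v3 reads of GFP-sorted cells with Cell Ranger 3.0.2 on GRCm38 (mm10). Library tables were matched to conditions by barcodes in the study's supplementary lists. Cells were filtered on UMIs and genes, then clustered with Seurat 5.3.0 (R 4.3.3) on 2000 variable genes after integration of both libraries, without Malat1 and the guidance genes. Clusters were named from fixed markers, and the scoring of the stages was chosen after the clusters were seen. Scrublet, as scanpy 1.11.5 ships it, marked doublets, which were kept. UMIs were summed per class and library. CPM have exact Poisson intervals, shares Clopper-Pearson intervals and ratios exact binomial intervals, computed with scipy 1.17.1, and no test was run. Limits given for a share of 0 are instead 3 cells over the cells counted, and are tighter. For Sema5a in Control early neuroblasts this limit was 2.03%, and the upper Clopper-Pearson limit was 2.46%. The stage and TBI ratio steps were tried on simulated class sums with Poisson counting error alone. Clustering, naming, doublet calls and thinning were not simulated.

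The guidance genes, pathway list and markers were chosen with earlier results of these data known. Named with full values were genes led by 1 group, past 2-fold between stages, or past 1.5-fold between libraries with an interval without 1, and others were chosen after their values were seen. Gene positions are from GENCODE vM21 and promoters from RefSeq. Cells thinned to 2000 UMIs, a stricter mitochondrial limit, doublet removal, other clusterings, scalings, folds and UMI limits were tried.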

Additional observations from a re-analysis of the deposited data

Results flagged for a closer look

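For 5 guidance genes, the TBI to Control ratio was past 1.5-fold in one direction in 1 cell class and in the opposite direction in another. Only pairs with an interval that left out 1 were used. The share of all genes with such opposite ratios was not computed, so the count of 5 has nothing to be set against. With 1 library per condition the difference between the classes was not tested. Robo2 had ratios of 0.62 in intermediate neuroblasts, 1.55 in Reln neurons and 0.47 in astrocytes. After thinning these were 1.89, 1.47 and 0.81, so the ratio in intermediate neuroblasts turned and the one in astrocytes no longer passed 1.5-fold. Epha4 had 0.41 in Reln neurons and 6.02 in pericytes, where 53 of its 66 TBI UMIs lay in 1 cluster with neuroblast markers. Plxna3 had 1.52 in intermediate neuroblasts and 0.59 in immature granule neurons. Nrp2 had 2.34 in cycling progenitors and 0.66 in endothelial cells, and Efnb2 had 0.63 and 1.51 in these 2 classes. Over the other processings the Plxna3 ratios ran from 1.19 to 1.58 and from 0.46 to 0.71. Those of Nrp2 ran from 1.38 to 2.555 and from 0.65 to 0.77, and those of Efnb2 from 0.28 to 0.64 and from 1.30 to 1.91. Except for Efnb2 in cycling progenitors, each was within 1.5-fold in at least 1 setting.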

How the results depend on the processing

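Of the 72 recomputed counts, 61 stayed within 1.5 times the value given above. They were made for the guidance genes alone. The share of all genes under each setting was not computed, so these counts cannot be set against it. At 2-fold over the next group 24 genes were led in place of 9. Thinning to 2000 UMIs leaves fewer UMIs to pass the limits and leaves out cells under 2000 UMIs. With it, 4 genes were higher and 1 was lower along the stages in place of 11 and 11. In TBI 8 pairs were higher and 3 lower in place of 22 and 18. Without cells over 10% mitochondrial UMIs 7 genes were lower along the stages, and without integration 14 pairs were higher in TBI. A 2-fold limit left 4 pairs higher and 2 lower, and a limit of 20 UMIs gave 50 and 43. Of the 9 led genes 7 were led in all 9 other processings, and Efna1 and Sema3d were not. Of 394 recomputed stage ratios 1 turned its direction, and of 261 recomputed TBI ratios 8 did. Settings in which a ratio could not be formed, among them some for intermediate neuroblasts, are left out of these numbers. Thinning turned Efnb2 along the Control stages to 1.37, Sema6d in radial glia-like progenitors to 0.81, Epha3 in early neuroblasts to 1.08, Robo2 in intermediate neuroblasts to 1.89, Sema4f in late neuroblasts to 1.25 and Plxna4 in Reln neurons to 1.81. Robo2 in intermediate neuroblasts was at 1.07 without cells over 10% mitochondrial UMIs. Sema5a in late neuroblasts was at 0.50 without integration and 0.45 at the coarser resolution. For these turns the cause was not tested. The pericyte setting without the cluster with neuroblast markers was chosen after seeing the data. No paired analysis was possible because the animals of a condition were pooled into 1 library, and for the same reason no replicate could be left out. Ratios of genes with under 100 UMIs in a class are limited by depth.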

Other observations

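The 31 fibroblast-like cells, 12 from Control and 19 from TBI and too few for a class, held several guidance genes. Nrp2 was at 345 CPM in Control (14 UMIs) and 286 in TBI (22 UMIs), beside 83.5 and 120 in the highest class. Epha7 was at 197 and 208 CPM from 8 and 16 UMIs, beside 91.0 and 51.2 in the highest class. These counts are small, and no comparison was made with them. The unnamed cells, 165 from Control and 284 from TBI, entered no stage but carried guidance genes of the stages. Epha4 was at 283 and 311 CPM there, Sema3c at 231 and 240, Sema5a at 176 and 174 and Plxna2 at 126 and 195. Each was below its highest class, and these genes were chosen after their values were seen.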
